A study of Rattus norvegicus with 12 samples.

Results

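Atf4, Asns, Ddit3, Trib3, Psat1 and Phgdh are 6 genes of the amino acid stress response, described here in 3 nervous tissues (cerebellum, spinal cord, sciatic nerve) from rats given acrylamide or saline. Their NCBI Gene IDs in RefSeq are 79255 (Atf4), 25612 (Asns), 29467 (Ddit3), 246273 (Trib3), 293820 (Psat1) and 58835 (Phgdh). They were found as all probe sets whose single gene symbol in the platform annotation was one of these names. This gave 8 of 31042 probe sets and 6 of 14217 different gene symbols: 3 probe sets for Trib3 and 1 for each other gene. Male Wistar rats received acrylamide at 30 mg/kg per day by oral gavage for 21 days, or saline, which another label calls solvent. The labels give their age at the start as 25 days and the series text as 3 weeks, and the labels alone could also be read as collection 21 days later. Each of the 3 tissues had a saline group and an acrylamide group of 2 arrays, each array made from pooled tissue of 2 rats, so the 12 arrays form 6 groups. The spread between arrays is a spread between pools, and no label ties the tissues to individual rats. Acrylamide is an electrophile that reacts with thiol groups, those of glutathione included, and is toxic to long axons.

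ATF4 is a transcription factor whose messenger RNA is translated better when the initiation factor eIF2 is phosphorylated, which happens under amino acid shortage, endoplasmic reticulum stress, heme shortage or viral double-stranded RNA. Much of its control is therefore at translation, which arrays do not measure. Its targets include enzymes that make amino acids, such as ASNS (asparagine synthetase), PHGDH and PSAT1 (the first and second steps of serine synthesis from a glycolytic intermediate), and regulators of the stress response, such as DDIT3 (the factor CHOP) and TRIB3 (a pseudokinase that binds and restrains ATF4 and AKT). In the brain, serine is made largely by astrocytes, and serine feeds glycine, glutathione and the head groups of membrane lipids.

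The 3 tissues carried their own markers, and some arrays also carried those of other tissues. Summed signals of 12 cerebellar neuron markers were 94974 to 104161 on cerebellum arrays and 2518 to 3400 on cord arrays, and those of 7 Schwann cell markers were 97282 to 121416 on nerve arrays. On nerve replicate 1 arrays the cerebellar sum was 14005 in saline and 18005 in acrylamide, against 2500 and 2298 on replicate 2. Skeletal muscle markers summed to 45049 on spinal cord saline replicate 1 and to at most 7633 on the other cord arrays. On nerve arrays they summed to 9574 and 3416 in saline and to 8034 and 23077 in acrylamide. On cerebellum arrays they summed to between 16356 and 18347, so this sum does not mark muscle alone. The nerve values of 9574 and 8034 are those of the replicate 1 arrays with high cerebellar sums, and their source was not tested. Fat cell markers summed to 42070 on sciatic nerve saline replicate 1 and to between 10009 and 16425 on the other nerve arrays. Array medians lay between 161 and 199 arbitrary units.

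The study's main question is how acrylamide moves gene expression in each tissue. None of the 5 genes with a measurable signal (Atf4, Asns, Ddit3, Psat1 and Phgdh) passed the test in the cerebellum, the spinal cord or the sciatic nerve. Their largest fitted difference was 1.32-fold on the log2(signal + 16) scale, for Asns in the nerve, and it rested on 1 saline array. Trib3 was dim on every array and could not be tested. Differences below are log2 differences of signal + 16, acrylamide minus saline, ± the standard error of a limma model of all 12 arrays, with p-values adjusted by the Benjamini-Hochberg method over all probe sets tested.

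Atf4 had a high signal on its probe set everywhere. Cerebellum arrays read 3548 and 4148 in saline and 4370 and 3938 in acrylamide. Spinal cord arrays read 3432 and 4124 in saline and 3174 and 3560 in acrylamide. Sciatic nerve arrays read 4434 and 4945 in saline and 4074 and 4308 in acrylamide. The groups overlapped in the cerebellum and the cord, and both acrylamide arrays lay below both saline arrays in the nerve. The differences were 0.11 ± 0.12 in the cerebellum, -0.16 ± 0.12 in the cord and -0.16 ± 0.12 in the nerve (limma adjusted p = 1, 1 and 0.9995). The 95% intervals of the 3 differences ran from 0.743-fold to 1.30-fold, so a 2-fold difference either way lay outside them.

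Ddit3 encodes CHOP, a bZIP factor that is induced through ATF4 and pairs with C/EBP proteins. Its cerebellum signals were 520.1 and 609 in saline and 645 and 598 in acrylamide. In the spinal cord they were 645 and 624.5 in saline and 636.5 and 693 in acrylamide. In the sciatic nerve they were 485 and 406 in saline and 427 and 428 in acrylamide. The groups overlapped in all 3 tissues, with differences of 0.14 ± 0.12, 0.06 ± 0.12 and -0.05 ± 0.12 (limma adjusted p = 1, 1 and 0.9995). The intervals ran from 0.799-fold to 1.33-fold. Without nerve saline replicate 1 the nerve difference turned to 0.07.

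Trib3, which ATF4 and CHOP induce in stressed cells, stayed under the signal of 112 needed to enter the tests on all 3 probe sets and all 12 arrays. The brightest of its probe sets read between 31.4 and 78.6. Another read between 3.61 and 40.4, and the dimmest between 3.37 and 31.8. The brightest read 76.0 and 31.4 in cerebellum saline and 43.6 and 78.6 in cerebellum acrylamide, so the 2 replicates of each group lay farther apart than the group means. In the nerve it read 54.4 and 64.6 in saline and 51.3 and 33.5 in acrylamide. No fold is given at these signals, and a low signal does not show that the transcript was missing.

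**Figure D1:**
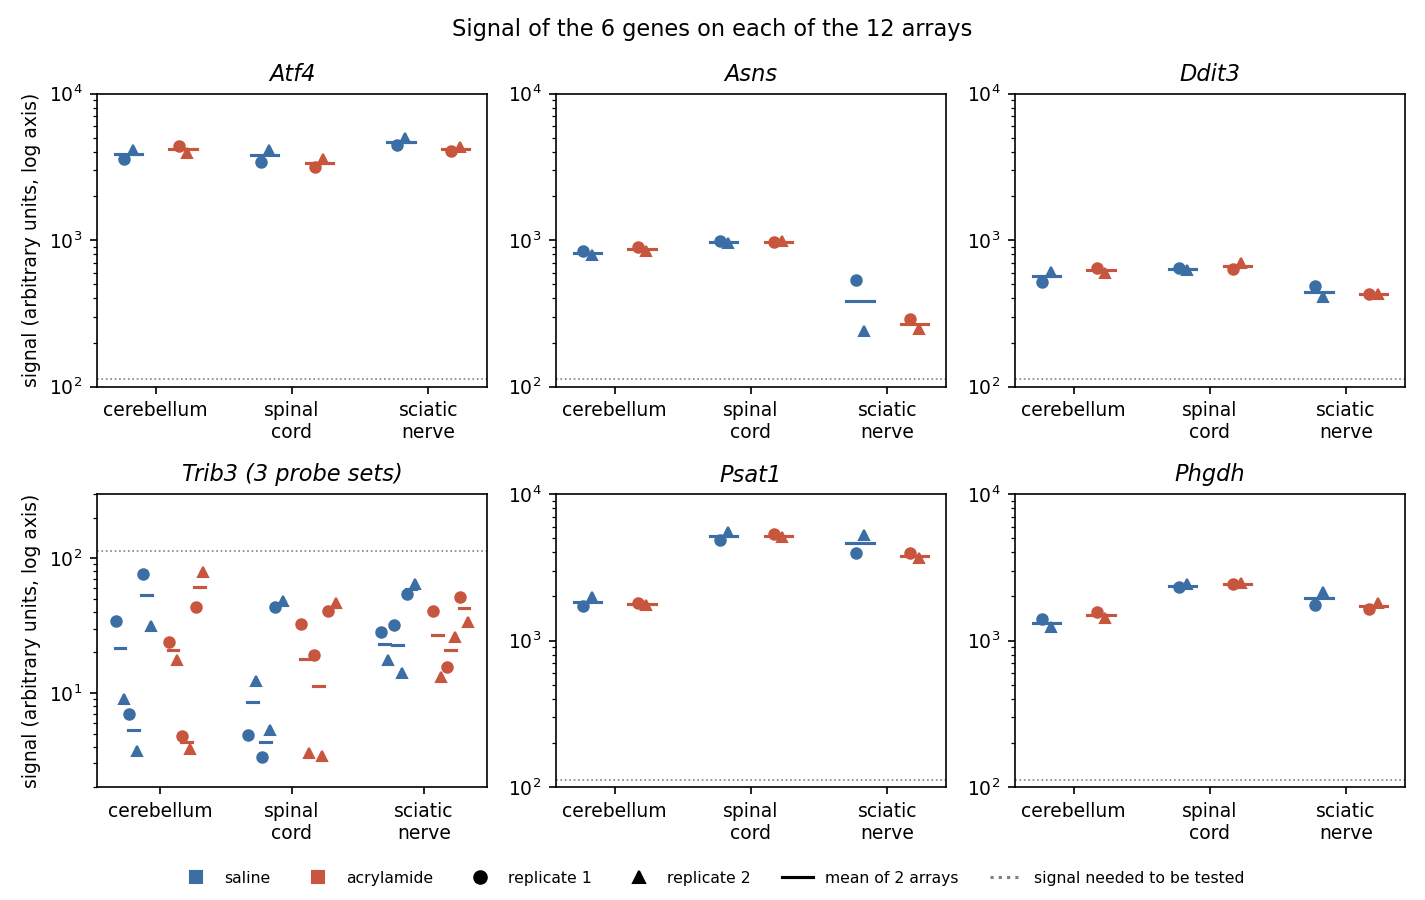
Signal of each gene in arbitrary units on a log axis, by tissue, with circles for replicate 1, triangles for replicate 2 and a bar for the mean of the 2 arrays of a group (blue saline, red acrylamide). Atf4 stays between 3174 and 4945 on all arrays, Asns drops to between 239 and 531 in the nerve, Psat1 is at most 1969 in the cerebellum and at least 3661 elsewhere, and all Trib3 points lie under the dotted line at 112.

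Among the enzymes, Asns makes asparagine from aspartate and glutamine. Its cerebellum signals were 837 and 786 in saline and 890.3 and 843 in acrylamide, and its spinal cord signals were 988 and 951 in saline and 969 and 978 in acrylamide. In the sciatic nerve it read 531 and 239 in saline and 288 and 249 in acrylamide. Both acrylamide arrays lay above both saline arrays in the cerebellum, by a narrow margin, while in the nerve the groups overlapped and saline replicate 1 stood above the other 3 arrays. The differences were 0.09 ± 0.27, 0.01 ± 0.27 and -0.40 ± 0.27 (limma adjusted p = 1, 1 and 0.9995), and their intervals ran from 0.494-fold to 1.64-fold, the widest of the 5 genes. The model shares a single spread per gene over all tissues, so this error is not the spread of any tissue alone. Over both treatments the coefficient of variation of Asns was 5.09% in the cerebellum, 1.59% in the cord and 42.1% in the nerve. The nerve arrays thus widen the cerebellum and cord intervals.

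The nerve value of Asns depended on which saline array was used. It was -0.95 (limma adjusted p = 0.0440) without saline replicate 2 and 0.15 (adjusted p = 0.613) without saline replicate 1. In these fits, and in every fit below that leaves out an array, the group left with 1 array is assumed to vary like the other groups. Over the 22 alternatives its adjusted p ranged from 0.0440 to 1. Saline replicate 1 was the nerve array with the highest fat cell sum (42070), the highest microglia and macrophage sum (15152, against 5263, 8562 and 9897) and the second highest cerebellar sum (14005). The acrylamide array with the highest cerebellar sum (18005) had an Asns signal of 288. The part of these other cells in the Asns signal was not tested, and in bulk tissue fewer cells of a type and less RNA per cell cannot be told apart.

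**Figure D2:**
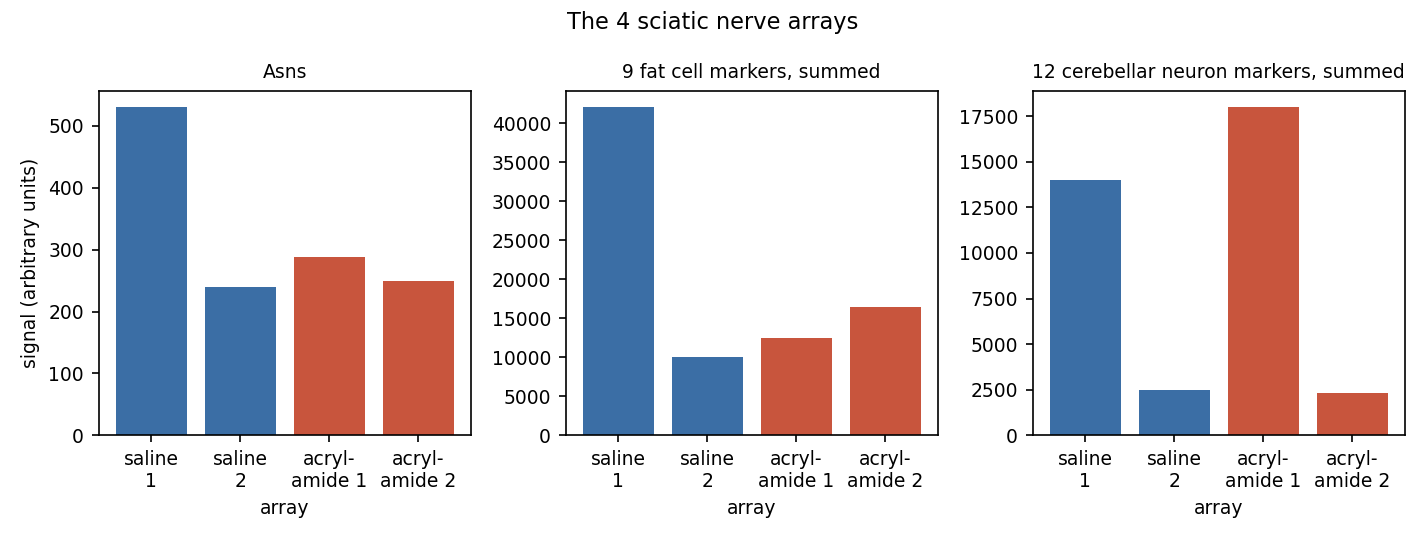
Bars give the Asns signal and the summed signals of 9 fat cell and 12 cerebellar neuron markers on the 4 sciatic nerve arrays, in arbitrary units (blue saline, red acrylamide). Saline replicate 1 is highest for Asns (531) and for fat cell markers (42070), and both replicate 1 arrays are high for cerebellar markers (14005 and 18005).

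Phgdh, the enzyme that commits 3-phosphoglycerate to serine, read 1398 and 1229 in cerebellum saline and 1576 and 1420 in cerebellum acrylamide. In the spinal cord it read 2306 and 2426 in saline and 2448 and 2453 in acrylamide, and in the nerve 1757 and 2149 in saline and 1636 and 1808 in acrylamide. Both acrylamide arrays were the higher ones in the cerebellum and the cord, and the nerve groups overlapped. The differences were 0.19 ± 0.11, 0.05 ± 0.11 and -0.17 ± 0.11 (limma adjusted p = 1, 1 and 0.9995), with intervals from 0.742-fold to 1.36-fold.

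Psat1, the aminotransferase that acts next in serine synthesis, read 1715 and 1969 in cerebellum saline and 1813 and 1750 in cerebellum acrylamide. Its spinal cord signals were 4839 and 5473 in saline and 5305 and 5053 in acrylamide, and its nerve signals 3952 and 5245 in saline and 3943 and 3661 in acrylamide. Both acrylamide arrays lay under both saline arrays in the nerve, narrowly so for the nearest pair. The differences were -0.04 ± 0.13, 0.01 ± 0.13 and -0.26 ± 0.13 (limma adjusted p = 1, 1 and 0.967), with intervals from 0.681-fold to 1.23-fold. The nerve value ranged from -0.46 to -0.06 when single arrays were left out, with the value nearest 0 being without saline replicate 2. Astrocyte and Bergmann glia markers, of the cells that make most serine in the brain, were higher for 6 of 9 in the cerebellum, 8 of 9 in the cord and 6 of 9 in the nerve (medians 0.02, 0.18 and 0.28), and 0 of them passed. Their summed levels were 69593 to 70426 in saline and 72739 to 75214 in acrylamide cerebellum, 87364 to 87444 in saline and 92753 to 97617 in acrylamide cord, and 36187 to 39035 in saline and 36057 to 40481 in acrylamide nerve, with no marker at 0. Microglia and macrophage markers were higher for 9 of 9 in the cerebellum, 9 of 10 in the cord and 5 of 8 in the nerve (medians 0.47, 0.40 and 0.03), with 0 passing. Their sums were 2511 to 2596 in saline and 3503 to 3849 in acrylamide cerebellum, and 6581 to 6882 in saline and 9422 to 9544 in acrylamide cord. In the nerve they were 15152 and 5263 in saline and 8562 and 9897 in acrylamide. Of all probe sets, 9376 of 18780 were higher in the cerebellum, 9720 of 18934 in the cord and 9127 of 18161 in the nerve. The part of these glia and macrophages in the enzymes' values was not tested.

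Counted together, 0 of 5 genes passed limma at an adjusted p of 0.05 in the cerebellum, where 0.0% of 18780 probe sets did. The count was 0 of 5 in the cord, against 0.0% of 18934, and 0 of 5 in the nerve, against 0.00551% of 18161. At an unadjusted p under 0.05 the count was again 0 of 5 in each tissue, where 2.75%, 2.88% and 5.1% of all probe sets were. The groups did not overlap for 2 of 5 genes in the cerebellum (Asns and Phgdh, higher), against 33.7% of probe sets in either direction and 17.1% higher. They did not overlap for 1 of 5 in the cord (Phgdh, higher), against 33.6% and 17.7% higher, and for 2 of 5 in the nerve (Atf4 and Psat1, lower), against 26.2% and 12.9% lower. With 5 genes these counts are not results about the members.

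Averaged over the 3 tissues, which puts 6 arrays on each side, the differences were -0.07 ± 0.07 for Atf4, 0.05 ± 0.07 for Ddit3 and -0.10 ± 0.16 for Asns. They were -0.10 ± 0.08 for Psat1 and 0.02 ± 0.07 for Phgdh. None of the 5 passed limma (adjusted p = 1 for each, and 0 at an unadjusted p under 0.05), against 0.0127% of 15807 probe sets that passed and 5.49% at an unadjusted p under 0.05. All 5 differences were negative in the nerve and 4 of 5 positive in the cerebellum and in the cord, but the test of a difference between tissues passed for 0 of 5 (limma F test, adjusted p = 1 for each) and for 0.0% of all probe sets. The smallest unadjusted p of that test was 0.128, for Phgdh, where 2.36% of all probe sets were under 0.05.

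Leaving out 3 of the arrays with high marker sums of other tissues (spinal cord saline 1, sciatic nerve saline 1 and acrylamide 1) was chosen after seeing the data. Then 2 probe sets passed in the cerebellum (0.0106%), 0 in the cord (0.0%), 430 probe sets passed in the nerve (2.37%) and 197 in the average (1.25%). Of the 5 genes 0 passed in any tissue or in the average. Each nerve group then held 1 array. The acrylamide array kept had the highest skeletal muscle sum of the nerve arrays (23077), and the saline array kept had the lowest (3416).

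**Figure D3:**
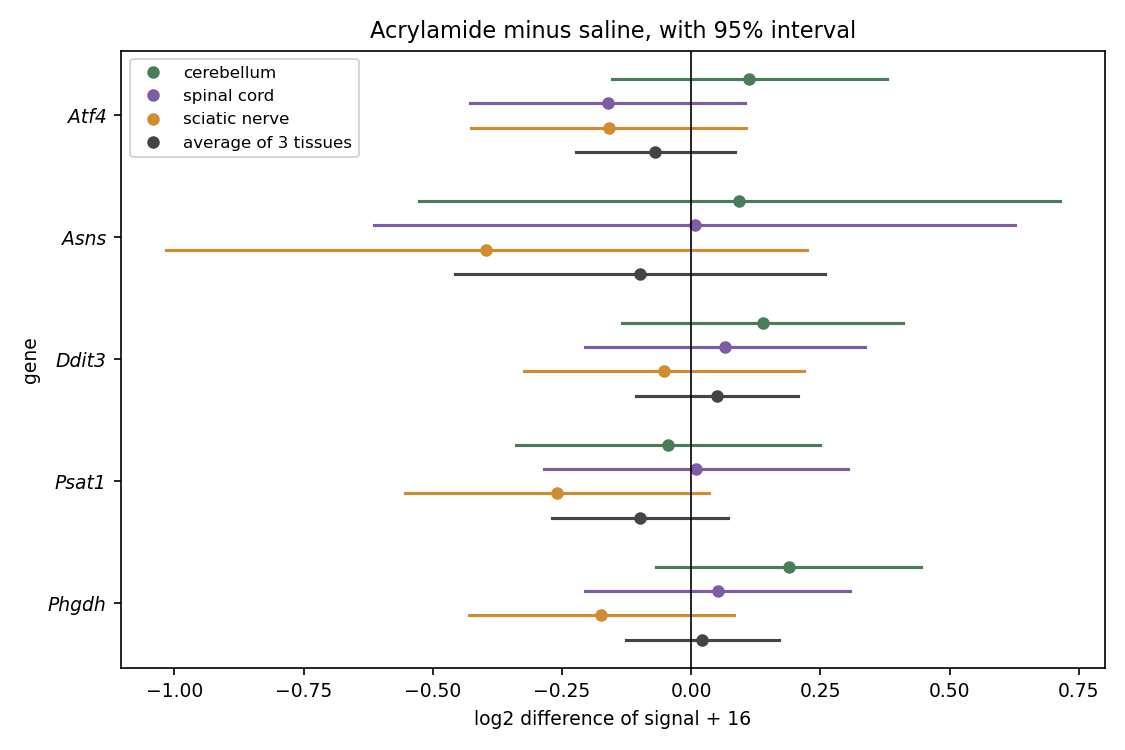
Points give the log2 difference of signal + 16, acrylamide minus saline, for 5 genes in each tissue and averaged over tissues, and lines the 95% interval from limma. Every interval crosses 0, and the widest is that of Asns, which reaches from 0.494-fold in the nerve to 1.64-fold in the cerebellum. For each gene the tissue intervals have the same width, because the model shares the gene's spread over all arrays.

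Around these 6 genes, 108 other genes of the pathway were listed in 7 groups, and 101 were on the arrays under a single symbol. None passed limma for acrylamide in a tissue or in the average. At an unadjusted p under 0.05 there were 2 of 90 tested in the cerebellum, 5 of 92 in the cord and 6 of 95 in the nerve, or 2.22%, 5.43% and 6.32%, beside 2.75%, 2.88% and 5.1% of all probe sets. The median differences of these genes were 0.005, 0.001 and 0.02, and those of all probe sets -0.0002, 0.004 and 0.0009.

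Upstream of ATF4, 15 genes of the eIF2 kinases, eIF2 and its exchange factor and phosphatase were tested in each tissue, and 0 passed limma. At an unadjusted p under 0.05 there were 2 lower in the cerebellum (1.44% of all probe sets), 0 in the cord and 2 higher in the nerve (2.72%). Eif2ak3, the kinase PERK that senses endoplasmic reticulum stress, read 986 and 738 in cerebellum saline and 675 and 658 in cerebellum acrylamide. Its difference there was -0.35 ± 0.15 (limma unadjusted p = 0.0406, adjusted p = 1), with -0.14 without saline replicate 1 and -0.55 without saline replicate 2, and it was -0.25 ± 0.08 averaged over tissues (adjusted p = 0.754). Eif2s3, a subunit of eIF2 itself, was at -0.20 ± 0.08 in the cerebellum (adjusted p = 1). Eif2ak4, the kinase GCN2 that senses uncharged transfer RNA, read 406 and 442 in nerve saline and 522 and 545 in nerve acrylamide, a difference of 0.32 ± 0.13 (adjusted p = 0.964). Eif2ak2, the interferon-induced kinase PKR, was at 0.41 ± 0.17 in the nerve (adjusted p = 0.967). Acrylamide arrays lay apart from saline arrays for Eif2ak3 in the cerebellum and Eif2ak4 in the nerve, and none of these differences passed. Of all probe sets, 33.7% in the cerebellum and 26.2% in the nerve lay apart in either direction, and these genes were named for their small p.

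Beside and below ATF4, 7 of 8 listed transcription factor genes were tested in the cerebellum and the cord and all 8 in the nerve, with 0 passing and 0 at an unadjusted p under 0.05. Their medians were 0.05, 0.05 and -0.06. Of 24 other ATF4 targets listed, 16 were tested in the cerebellum and the cord and 18 in the nerve. In the cerebellum 5 were higher and 11 lower (median -0.03), in the cord 5 higher and 11 lower (-0.05), and in the nerve 10 higher and 8 lower (0.03), with 0 passing.

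Ddit4, a target that restrains the growth kinase mTORC1, came nearest to passing. It read 2753 and 2900 in nerve saline and 1525 and 1180 in nerve acrylamide, a difference of -1.07 ± 0.12 (limma adjusted p = 0.0642, and 0.00168 to 0.9998 over 22 alternatives). In the cord it read 1611 and 1771 in saline and 1301 and 1186 in acrylamide, a difference of -0.44 ± 0.12 (adjusted p = 1). Its difference was -0.15 ± 0.12 in the cerebellum (limma unadjusted p = 0.234) and -0.55 ± 0.07 averaged over tissues (limma adjusted p = 0.0722). The test of a difference between tissues had an unadjusted p of 0.00104 for it (limma F test) and did not pass after adjustment. Of all probe sets, the groups did not overlap in either direction for 26.2% in the nerve and 33.6% in the cord. All Ddit4 values in acrylamide lay under those in saline in the nerve and in the cord. With quantile normalization its nerve difference was -1.03 and passed (adjusted p = 0.0418), and it passed also with a pseudocount of 64 and without saline replicate 1 or acrylamide replicate 1. Without the 3 arrays with markers of other tissues it was -1.29, from 1 array in each nerve group. Cth, the enzyme that makes cysteine from cystathionine, read 199 and 154 in nerve saline and 292 and 347 in nerve acrylamide (0.81 ± 0.22, adjusted p = 0.895). Ppp1r15a, the stress-induced subunit that directs a phosphatase to eIF2, was at -0.40 ± 0.16 in the cord (adjusted p = 1).

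The genes that supply and charge amino acids gave no call either. Amino acid transporters had medians of 0.05, 0.05 and 0.07 over the 8, 10 and 9 members tested in the cerebellum, cord and nerve, with 0 at an unadjusted p under 0.05. Cytosolic transfer RNA synthetases, 19 tested in each tissue, had medians of 0.04, -0.003 and 0.02, again with 0 at that p. Serine, glycine and one-carbon enzymes had medians of 3.56e-05, 0.06 and 0.05 over 11, 11 and 12 members. Among the latter, 2 had an unadjusted p under 0.05 in the cord: Cbs, which joins serine and homocysteine, at 0.75 ± 0.29, and Gldc, which breaks down glycine, at -0.43 ± 0.17 (limma adjusted p = 1 for both). Cbs read 208 and 315 in cord saline and 485 and 400 in cord acrylamide, and its difference was 0.46 without saline replicate 1 and 1.03 without saline replicate 2. Gldc, which was higher in nerve than in cord by 1.91 ± 0.17 in saline rats, read 383 and 364 in cord saline and 262.5 and 285 in cord acrylamide. Schwann cell markers were lower in the acrylamide cord for 7 of 7 (median -0.62), where 9720 of all 18934 probe sets were higher. Of the 7 markers, 5 had a limma unadjusted p under 0.05, against 2.88% of all probe sets, and 0 passed. Their sums were 43305 and 46716 in saline and 37237 and 33707 in acrylamide, with no marker at 0. Their part in the Gldc value was not tested.

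Stress genes of the endoplasmic reticulum that answer to IRE1 and ATF6 rather than ATF4 had 17 members tested in each tissue. Of these 9, 9 and 12 were higher in the cerebellum, cord and nerve, with medians of 0.04, 0.001 and 0.07, and 0 passed limma. Sdf2l1, a chaperone cofactor, read 362 and 389 in nerve saline and 470 and 527.5 in nerve acrylamide. Its differences were 0.28 ± 0.11 in the cord and 0.39 ± 0.11 in the nerve (adjusted p = 1 and 0.895). Hspa5, the chaperone BiP, read 7337 and 6856 in nerve saline and 8130 and 8022 in nerve acrylamide, at 0.19 ± 0.07 (0.924). Acrylamide arrays were the higher ones for both genes in the nerve, without passing, where the groups did not overlap in either direction for 26.2% of all probe sets.

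**Figure D4:**
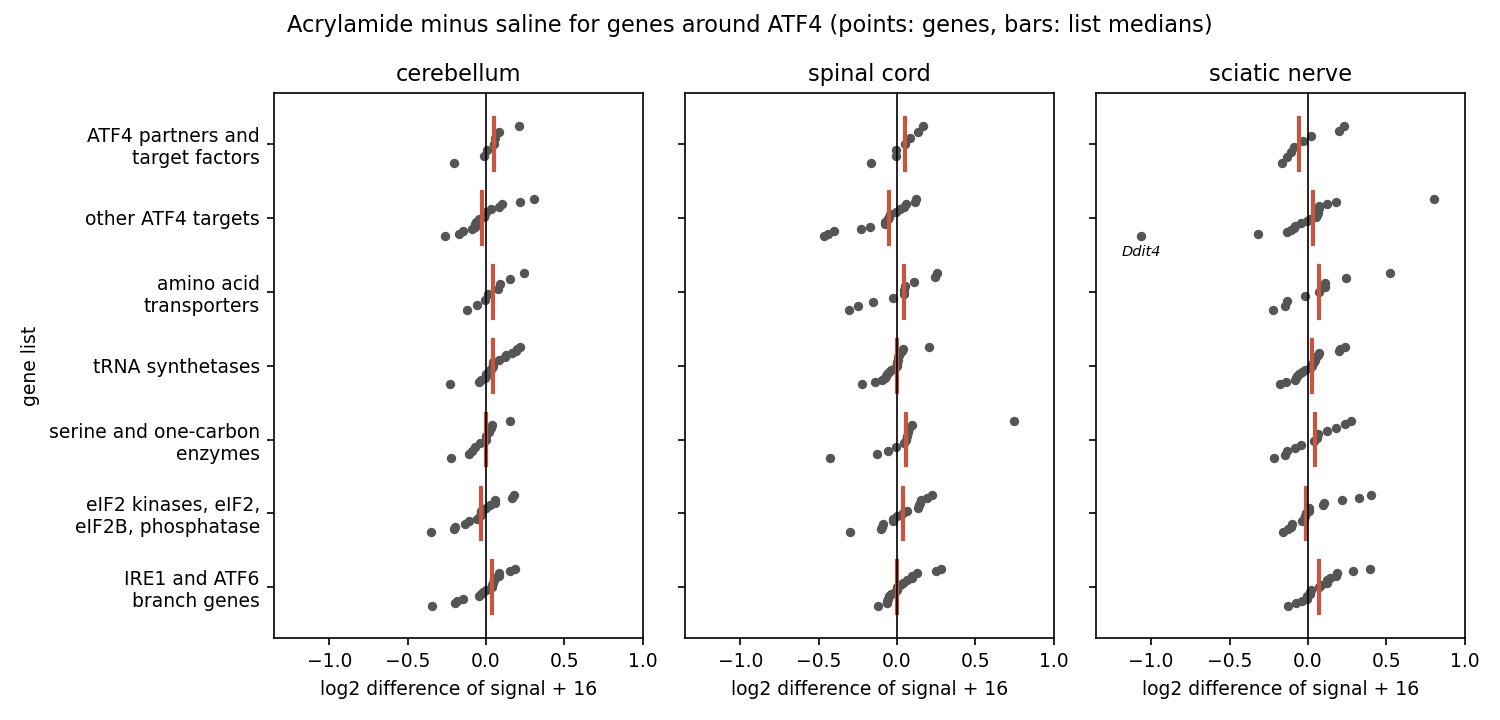
Points give the log2 difference of signal + 16, acrylamide minus saline, of single genes in 7 lists around ATF4 in each tissue, and red bars the median of a list. List medians lie between -0.06 and 0.07, and Ddit4 in the nerve (-1.07) stands farthest from 0.

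The levels of the 6 genes in the tissues of saline rats were compared next. Serine synthesis genes were lowest in the cerebellum, Asns and Ddit3 were lowest in the sciatic nerve, and Atf4 differed little. Calls here needed an adjusted p under 0.05 and at least a 2-fold difference. That rule called 1 of 5 genes between cord and cerebellum, higher in cord, where it called 21.6% of 20459 probe sets (12.1% higher and 9.53% lower). It called 1 of 5 between nerve and cord, lower in nerve, where it called 26.1% of 20238 (10.6% higher and 15.5% lower). Between nerve and cerebellum it called 1 of 5 higher and 1 of 5 lower, and 38.4% of 20703 (17.7% higher and 20.6% lower). These shares are near the background of tissue differences. Median centring of the arrays moved the median of all probe sets by 0.18 between nerve and cord and by 0.20 between nerve and cerebellum. The share of calls that were higher in the nerve than in the cord was 40.6%, and 51.8% with median centring, and against the cerebellum it was 46.3% and 55.1%.

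Psat1 was highest in the spinal cord (5156 ± 448, SD, n = 2), then in the sciatic nerve (4598 ± 914) and lowest in the cerebellum (1842 ± 179). Every cord and nerve array of either treatment lay above every cerebellum array, the nearest being 3661 and 1969. Cord exceeded cerebellum by 1.48 ± 0.13, or 2.79-fold (limma adjusted p = 3e-05), and nerve exceeded cerebellum by 1.30 ± 0.13, or 2.46-fold (2.29e-05). Cord and nerve were within their spread (-0.18 ± 0.13 for nerve minus cord, adjusted p = 0.273), and with median centring that value was 0.004. Both calls against the cerebellum held in all alternatives run.

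Phgdh followed the same order, with 2366 ± 85.4 in the cord, 1953 ± 277 in the nerve and 1314 ± 120 (SD, n = 2) in the cerebellum. Cord exceeded cerebellum by 0.84 ± 0.11 (1.79-fold, limma adjusted p = 0.000304) and nerve exceeded cerebellum by 0.56 ± 0.11 (1.48-fold, 0.00171), both under the 2-fold needed for a call. Nerve and cord stood at -0.28 ± 0.11 with an adjusted p of 0.0585. All 8 cord and nerve arrays lay above all 4 cerebellum arrays, the nearest being 1636 and 1576. Over the 12 arrays the log2 signals of Psat1 and Phgdh had a Pearson r of 0.90, given as a description since the arrays fall into 3 tissues.

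Summed astrocyte and Bergmann glia markers were 69593 to 75214 on cerebellum arrays, 87364 to 97617 on cord arrays and 36057 to 40481 on nerve arrays. Oligodendrocyte markers summed to 33647 to 39853, 88369 to 97456 and 36455 to 45150, and Schwann cell markers to 1955 to 2292, 33707 to 46716 and 97282 to 121416. No marker of these lists was at 0 on any array. The part of cell makeup in the order of Psat1 and Phgdh was not tested.

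Asns had the opposite extreme. It was 969 ± 25.6 (SD, n = 2) in the spinal cord, 811.5 ± 36.1 in the cerebellum and 385 ± 206 in the sciatic nerve. Nerve minus cord was -1.40 ± 0.27, or 2.64-fold lower (limma adjusted p = 0.00206), and nerve minus cerebellum was -1.15 ± 0.27, or 2.21-fold lower (0.00451). Cord minus cerebellum was 0.25 ± 0.27 (adjusted p = 0.463), with a model error that is shared with the more variable nerve arrays. All cord arrays of either treatment, at 951 or more, lay above all cerebellum arrays, at 890 or less. All 4 nerve arrays, at 531 or less, lay under all 8 other arrays, at 786 or more. Without nerve saline replicate 2 the differences were -0.85 and -0.60 (adjusted p = 0.000571 and 0.00236), under 2-fold, so that both calls ended, and without nerve saline replicate 1 they were -1.95 and -1.70. Median centring gave -0.95 for nerve minus cerebellum (0.00595), which also ended that call. Over 21 alternatives the adjusted p ranged from 4.56e-06 to 0.0154 for nerve minus cord and from 1.65e-06 to 0.0276 for nerve minus cerebellum.

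Ddit3 was 635 ± 14.2 (SD, n = 2) in the cord, 565 ± 62.9 in the cerebellum and 445.5 ± 55.9 in the nerve. Nerve minus cord was -0.50 ± 0.12 (1.42-fold lower, limma adjusted p = 0.00599) and nerve minus cerebellum -0.33 ± 0.12 (1.26-fold lower, 0.0326), both under 2-fold, while cord and cerebellum stood at 0.17 ± 0.12 (0.263). All nerve arrays, at 485 or less, lay under all others, at 520.1 or more. The adjusted p for nerve minus cerebellum ranged from 0.0140 to 0.336 over 21 alternatives. Asns and Ddit3 had a Pearson r of 0.95 over the 12 arrays.

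Atf4 itself had the flattest profile of the 5, with 4689 ± 361 (SD, n = 2) in the nerve, 3848 ± 425 in the cerebellum and 3778 ± 489 in the cord. Nerve minus cord was 0.31 ± 0.12 (1.24-fold, limma adjusted p = 0.0448), nerve minus cerebellum 0.29 ± 0.12 (1.22-fold, 0.0535) and cord minus cerebellum -0.03 ± 0.12 (0.855). Over 21 alternatives the first of these had an adjusted p between 0.0149 and 0.287. Asns and Ddit3 were thus lowest where the Atf4 signal was highest, with r of -0.65 and -0.60 to Atf4 over the 12 arrays.

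**Figure D5:**
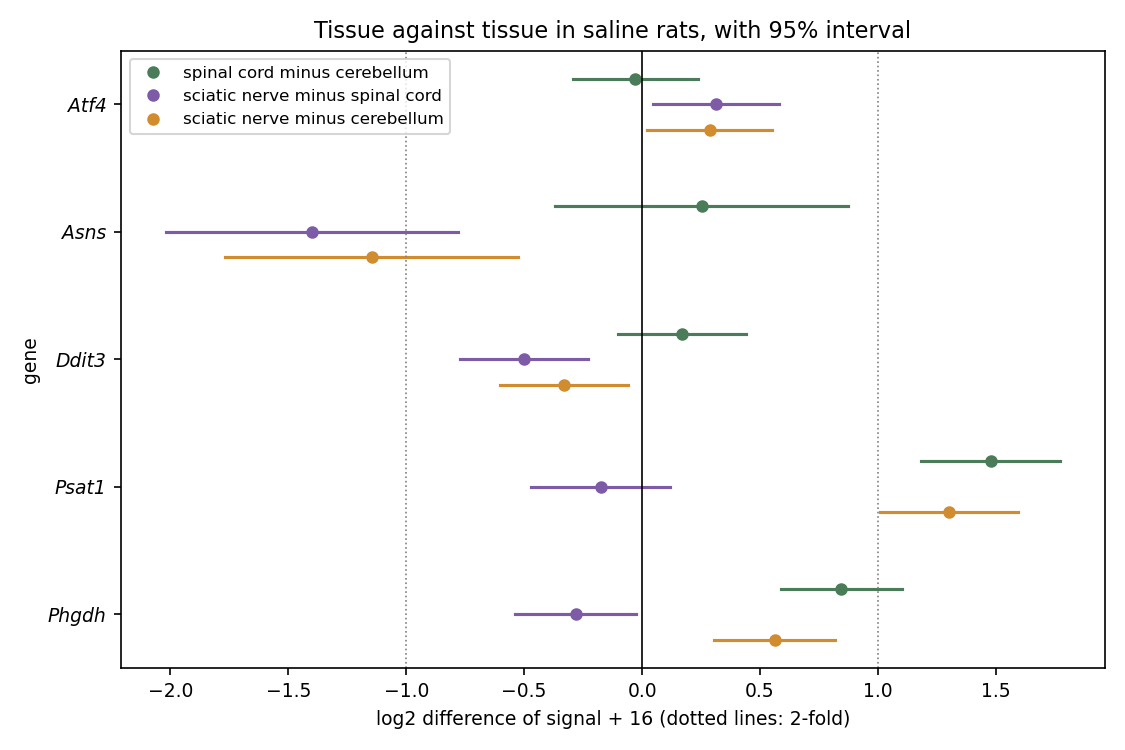
Points give the log2 difference of signal + 16 between tissues of saline rats for 5 genes, lines the 95% interval from limma and dotted lines a 2-fold difference. Psat1 lies past 2-fold above the cerebellum in cord (1.48) and nerve (1.30), Asns past 2-fold below cord and cerebellum in the nerve (-1.40 and -1.15), and Atf4 within 0.31 of 0.

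Other genes of the pathway did not share 1 direction between tissues, and those named here were chosen after their values were seen. Of 8 transcription factor genes tested between nerve and cerebellum, 7 were higher and 1 lower in the nerve, and the call rule called 5 higher and 0 lower (17.7% of probe sets were called higher). Nupr1, a stress-induced chromatin protein gene, was at 3.31 ± 0.23 (limma adjusted p = 2.3e-06). Cebpb, also higher in the nerve, ran from 0.40 to 1.73 with single arrays left out, on both sides of the 2-fold limit. Atf3, a stress factor gene, is 1 of the 5 called higher, but it entered the test through the nerve alone. It was under the signal of 112 in the cerebellum, so no fold is given and its direction is not a result. Atf3 read between 13.2 and 41.1 on cerebellum arrays, between 79.3 and 115 on cord arrays and between 487.5 and 636 on nerve arrays. Of 10 amino acid transporters, 7 were lower and 3 higher in nerve than in cord, and 4 were called lower and 2 called higher (15.5% and 10.6% of probe sets). The 4 called lower include Slc7a3, which entered the test through the cord alone, so its direction is not a result. Slc6a9, the glycine carrier of glia, was at -3.48 ± 0.23 for nerve minus cord (6.16e-06), and Slc7a5, a carrier of large neutral amino acids, at 1.39 ± 0.27 (0.00184). Of 19 transfer RNA synthetases, 11 were lower and 8 higher in nerve than in cord. The call rule called 5 lower and 0 higher, and with median centring 2 lower and 0 higher. Nars1, which charges asparagine, was at -1.14 ± 0.07 (3.79e-06) and Aars1, which charges alanine, at -1.02 ± 0.09 (2.31e-05), and with median centring both were under 2-fold (-0.96 and -0.84). Chac1, a glutathione-degrading enzyme induced by ATF4, was at -2.27 ± 0.18 (1.16e-05), and Ppp1r15a at 1.36 ± 0.16 (0.000125).

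Promoter sequences are shown for genes that differed in tissue pattern, Psat1 and Phgdh on one side and Asns on the other, and for Trib3, which stayed dim. They are the 150 bases upstream of the annotated start in RefSeq (GRCr8), which held an entry for all 6 genes, written 5′ to 3′ on the gene's strand. Capitals mark matches to GATGNAA or its reverse complement on either strand, the core of the element that ATF4 and C/EBP proteins bind together, whose longer form TGATGNAA contains it. The windows lie at chr1:222645409-222645558 (minus strand) for Psat1, chr2:188624790-188624939 (minus) for Phgdh, chr4:36769416-36769565 (minus) for Asns and chr3:161275534-161275683 (minus) for Trib3.
Psat1: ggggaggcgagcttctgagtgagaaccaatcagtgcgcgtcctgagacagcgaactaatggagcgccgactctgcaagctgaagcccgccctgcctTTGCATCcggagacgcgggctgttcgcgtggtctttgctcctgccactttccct
Phgdh: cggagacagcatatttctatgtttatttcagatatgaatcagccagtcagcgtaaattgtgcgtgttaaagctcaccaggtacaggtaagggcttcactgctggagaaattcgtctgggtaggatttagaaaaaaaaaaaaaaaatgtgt
Asns: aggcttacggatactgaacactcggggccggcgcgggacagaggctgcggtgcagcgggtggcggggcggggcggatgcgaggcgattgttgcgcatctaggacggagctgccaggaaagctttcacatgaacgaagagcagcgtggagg
Trib3: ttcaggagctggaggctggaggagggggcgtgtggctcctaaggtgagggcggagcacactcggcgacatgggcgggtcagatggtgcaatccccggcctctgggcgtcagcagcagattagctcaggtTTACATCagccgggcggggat

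Psat1 held the short form from 54 to 48 bases upstream of the start, and Trib3 held the short form and, from 21 to 14 bases upstream, the long form. Neither form was found in the 300-base windows of Atf4, Asns, Ddit3 or Phgdh. Of 33469 windows of that length, 12.1% held the short form and 3.98% the long form. Of the 250 bases upstream, 68.8% were G or C for Asns and 38.8% for Phgdh. A match is a description of the letters, and no match says only that they are not in this window.

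The genes most like each member over the 12 arrays were found among 12183 probe sets with a single symbol tested in all tissues, by Pearson r of the log2 signal, as a description with no test. Most like Asns were Agt (0.996), the precursor of angiotensin, Nnat (0.992) and Stoml2 (0.990). Agt read 873, 130, 316 and 165 on nerve saline 1 and 2 and acrylamide 1 and 2, so it too was highest on saline replicate 1. Most like Psat1 were Josd2 (0.996), the lipid kinase gene Pip4k2a (0.996) and Efcab14 (0.992). Most like Phgdh were Dctn5 (0.972), a dynactin subunit gene, Snf8 (0.970) and Apbb2 (0.965). Ddit3 was most like Rgs2 (0.980), a regulator of G protein signals, the glycolytic gene Pfkl (0.979) and Czib (0.974). Atf4 was most like the RNA exosome gene Exosc3 (0.914), Pard6b (0.906) and Fbh1 (0.900).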

How the data were processed

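RNA from each pool was hybridised to a 1-colour Affymetrix rat array. The deposited values are intensity signals on a linear scale, 1 per probe set, which the submitters' processing notes credit to GCOS 1.1. The signal algorithm and scaling are not given in these sources. Arrays were grouped by labelled tissue and treatment. With 57 control probe sets left out, the platform annotation gave 1 symbol to 20826 probe sets, several to 436 and none to 9780, and RefSeq held the gene ID of 20758.

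Values were taken as log2(signal + 16), which understates differences of dim genes. A probe set entered a tissue's tests if its mean over that tissue's arrays passed the 40th percentile of all such means (112), and 21332 did in at least 1 tissue. limma 3.58.1 in R 4.3.3 fitted 6 group means (lmFit, then eBayes with trend; 6 residual and 3.13 prior degrees of freedom), with two-sided p-values and Benjamini-Hochberg adjustment per contrast. The code was tested on simulated data. Few arrays limit the precision: the median standard error of an acrylamide difference in a tissue was 0.16. Each list gene was read from its brightest probe set. Members and lists were chosen with earlier results of these data known. The naming rule took all members, the 3 genes most like each, and up to 4 genes per list and acrylamide contrast by smallest p; of the latter, those with an unadjusted p under 0.05 are named.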

Additional observations from a re-analysis of the deposited data

How the results depend on the processing

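Other settings were 2 scalings (quantile, median centring), pseudocounts of 1 and 64, both a looser and a stricter filter (none, 60th percentile), a fit with no trend, a replicate block, each tissue fitted alone, and each array left out. Leaving out the 3 arrays with markers of other tissues was added after seeing the data. Among single genes, 2210 of the alternative values kept their direction and side of the threshold, 44 lost and 11 gained the call and 22 uncalled values changed sign; the causes were not tested beyond what each setting removes.

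Probe sets called for acrylamide in the cerebellum (0) were 1 with each tissue alone, 2 without the 3 arrays and 0 to 2 with single arrays left out; in the cord (0) they were 0 to 1 with single arrays left out. In the nerve (1) they were 2 with quantile scaling, a pseudocount of 64 or no filter, 0 with the replicate block or the tissue alone, 430 without the 3 arrays and 0 to 36 with single arrays left out (36 without saline 1, 15 without saline 2). In the average (2) they were 4 with quantile scaling, 1 with the stricter filter or no trend, 6 with the replicate block, 197 without the 3 arrays and 0 to 35 with single arrays left out (35 without nerve saline 1). The test between tissues (0) gave 45 without the 3 arrays and 0 to 1 with single arrays left out. Pathway genes called in the nerve (0) were 1 with quantile scaling or a pseudocount of 64, 2 without the 3 arrays and 0 to 2 with single arrays left out; in the average (0) they were 1 with quantile scaling or without the 3 arrays and 0 to 1 with single arrays left out, and between tissues (0) 1 without the 3 arrays. Members called in the nerve (0) were 0 to 1 with single arrays left out (Asns, without saline 2). Members called between nerve and cord (1) were then 0 to 1, and between nerve and cerebellum (2) 1 to 2, and 1 with median centring.

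Without the 3 arrays, uncalled values changed sign for Asns in the nerve (0.0551) and the average (0.0605), Ddit3 in the nerve (0.0722), Psat1 in the cord (-0.0798), Phgdh in the average (-0.0147) and Atf4 between cord and cerebellum (0.1039). Psat1 became -0.0017 in the cord with quantile scaling and 0.0043 between nerve and cord with median centring. With single arrays left out, acrylamide differences ran from -0.0197 to 0.0332 for Asns in the cord, -0.9458 to 0.1531 in the nerve and -0.282 to 0.0844 in the average, from -0.1767 to 0.0709 for Ddit3 in the nerve, from -0.1433 to 0.054 for Psat1 in the cerebellum and -0.0798 to 0.0972 in the cord, and from -0.0264 to 0.0696 for Phgdh in the average. Tissue differences ran from -0.1599 to 0.1039 for Atf4 between cord and cerebellum and from -0.3796 to 0.0273 for Psat1 between nerve and cord. Same-numbered arrays had deviations that correlated at 0.0955 in the cerebellum, -0.0772 in the cord and 0.3678 in the nerve. The main fit did not pair them, although the nerve value was the largest. Both nerve replicate 1 arrays also had high cerebellar marker sums (14005 in saline and 18005 in acrylamide). With the replicate block 0 of 5 members passed for acrylamide.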
